A study of Mus musculus with 16 samples.

Results

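The genes described here were 9 that encode chemokines, a chemokine receptor, a macrophage growth factor and a leukocyte signalling regulator: Ccl2, Ccl3, Ccl4, Ccl6, Ccl9, Cxcl12, Ccr2, Csf1 and Rgs1. They were taken by symbol from the array annotation, 9 of the 18193 genes that the arrays measured, and were carried by 19 probe sets. The arrays were Affymetrix Mouse430_2, on which sets of short oligonucleotide probes report transcripts as a log2 signal. The knockout (KO) embryos were Sf1-Cre/Dicer lox/lox, in which Cre driven by Sf1 regulatory sequence removes Dicer, the enzyme that cuts microRNA precursors, where Sf1 is active, as it is in the adrenal cortex. The embryos labelled wild type (WT) were littermates without Cre, which, by the matings described, could carry floxed Dicer alleles themselves. Both genotypes were C57BL/6 and were taken at embryonic days E15.5 and E16.5. Within each of 4 litters per stage the adrenals of a genotype were pooled, and each pool was run on 1 array, giving 4 KO and 4 WT arrays at E15.5 and likewise at E16.5, or 16 in all. Which KO pool and which WT pool came from the same litter is not given.

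Chemokines are small secreted proteins that guide leukocytes by engaging receptors that couple to G proteins. Among the ligands considered, Ccl2 draws monocytes through its receptor Ccr2, Ccl3 and Ccl4 attract monocytes and lymphocytes, and Ccl6 and Ccl9 are CC chemokines described in mouse that myeloid cells make and respond to. Cxcl12 is made by stromal cells and keeps progenitors and leukocytes that carry Cxcr4 in place. Csf1 is the growth factor on which most tissue macrophages depend, acting through Csf1r, and Rgs1 speeds the shut-off of G-protein signalling downstream of chemokine receptors in leukocytes. The fetal adrenal, as other fetal organs, receives macrophages during development.

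The arrays were checked against their labels. Cortex markers averaged between 12.2 and 13.1 on each of the 16 arrays, on the log2 signal scale, and chromaffin markers between 11.2 and 12.2. Dicer1 averaged 8.23 ± 0.16 in KO and 8.59 ± 0.07 in WT at E15.5, and 8.26 ± 0.14 in KO and 8.62 ± 0.16 in WT at E16.5 (SD, n = 4 each), differences of -0.35 (adjusted p = 0.0638) and -0.36 (adjusted p = 0.0414). The E16.5 difference missed the threshold in 11 of 16 fits that each left out 1 array (adjusted p up to 0.127), with every measured gene in the fit and under the 3 other scalings of the arrays. Whether the deletion removes the stretch that its probe set reports was not looked at. The mean signal of an array was 6.35 to 6.37 in KO and 6.31 to 6.32 in WT, and the median KO minus WT difference over all genes tested was 0.07 at E15.5 and 0.08 at E16.5. The array of WT E16.5 replicate 2 stood apart in RNA quality, with a 3′ minus 5′ signal difference of 3.25 for Gapdh and 3.05 for Actb, where the other 15 arrays lay between -0.05 and 1.50 for Gapdh and between 0.37 and 1.74 for Actb.

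In KO adrenals the chemokines Ccl6, Ccl9, Ccl3 and Ccl2, the receptor Ccr2 and the regulator Rgs1 were higher than in WT adrenals at both stages with every measured gene in the fit, with 3.69-fold for Ccl6 and 3.67-fold for Rgs1 at E16.5. Ccl4, Cxcl12 and Csf1 passed the test at neither stage by their brightest probe set. A second Cxcl12 probe set was higher in KO at E16.5, by 0.48 (adjusted p = 0.0331, over all probe sets tested). A gene passed when its adjusted p (limma, Benjamini-Hochberg over all genes tested) was under 0.05. In that fit 6 of the 9 genes were higher in KO at E15.5, against 6.19% of 18193 genes, and the same 6 at E16.5, against 8.62%. None was lower at either stage, where 3.08% and 4.33% of genes were. The median KO minus WT difference of the 9 genes was 0.58 at E15.5 and 0.63 at E16.5, against 0.07 over all measured genes at either stage. In whole-gland RNA a change in the number of cells that express a gene and a change in RNA per cell cannot be told apart.

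All further tests are from the fit of genes above a filter on low signal, which asked for 4 or more arrays above their 40th percentile, a level between 5.11 and 5.21. Of the 9 genes, 8 passed this filter. Ccl4, Ccl6, Ccl9, Cxcl12, Ccr2 and Csf1 were above it on all 16 arrays, whereas Ccl2 and Rgs1 were above it on 5 each and Ccl3 on 2, which left Ccl3 out. The 5 arrays that brought Rgs1 above the filter were all KO arrays. Since Rgs1 and Ccl2 entered the test through few arrays, the counts of tested genes that passed are given as a description. They were 4 of 8 at E15.5, with 3.69% of all 13644 genes higher, and 5 of 8 at E16.5, with 6.99% higher.

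**Figure D1:**
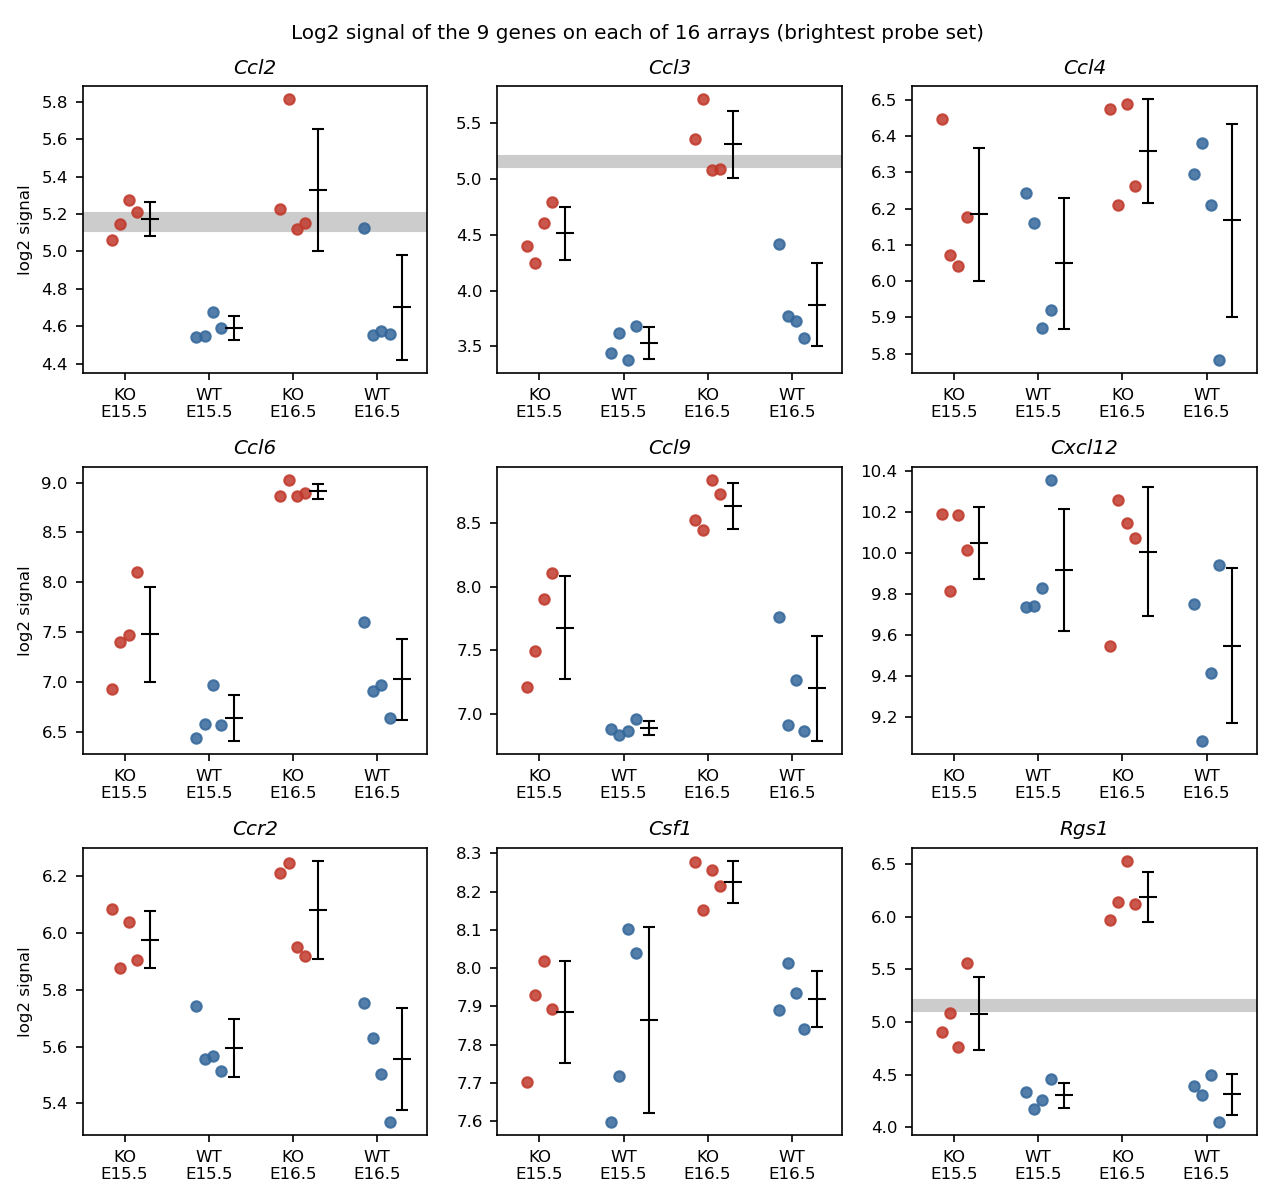
Log2 signal (y axis) of the brightest probe set of each of the 9 genes on the 16 arrays, KO in red and WT in blue at each stage. Points are arrays, the line and bar are the mean and SD of 4 arrays, and the grey band is the level of the filter, 5.11 to 5.21, where it falls in a panel; Ccl6, Ccl9 and Rgs1 lie highest on the 4 KO arrays of E16.5.

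Ccl6 and Ccl9 are neighbouring genes on chromosome 11 (GRCm38.p6 chr11:83587886-83593087 for Ccl6 and chr11:83572917-83578636 for Ccl9, both on the minus strand). Their promoters are shown because the genes lie side by side and both were higher in KO. Each sequence is the 250 bases before the gene's start from RefSeq (GRCm38.p6), at chr11:83593088-83593337 for Ccl6 and chr11:83578637-83578886 for Ccl9, written 5′ to 3′ along the gene, with capitals marking a match to the AP-1 motif TGANTCA.
Ccl6 promoter: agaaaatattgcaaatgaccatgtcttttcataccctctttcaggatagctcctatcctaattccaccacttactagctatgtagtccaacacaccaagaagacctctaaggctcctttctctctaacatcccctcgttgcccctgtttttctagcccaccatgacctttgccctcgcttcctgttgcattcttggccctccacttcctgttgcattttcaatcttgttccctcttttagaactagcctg
Ccl9 promoter: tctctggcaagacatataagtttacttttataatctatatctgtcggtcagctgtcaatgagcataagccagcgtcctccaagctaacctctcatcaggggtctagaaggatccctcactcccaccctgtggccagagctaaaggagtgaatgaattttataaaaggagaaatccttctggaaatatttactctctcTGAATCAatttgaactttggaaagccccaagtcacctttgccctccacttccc
Promoters of the 9 genes were matched by symbol, and those of the genes that passed and had an entry were searched on both strands. The AP-1 motif matched once in the Ccl9 promoter, at -53 to -47 from the start, and in 6.75% of 32851 promoters. GAGGAA, the core bound by PU.1, was found in neither promoter and in 23.3% of all promoters. The longest run that both promoters held was gccctccacttcc, 13 bases, beginning at -14 in Ccl9 and at -55 in Ccl6. These matches describe letters in a window and not binding.

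Ccl6 at E15.5 gave 6.93, 7.40, 7.47 and 8.10 on the KO arrays, against 6.43, 6.58, 6.97 and 6.57 on the WT arrays. The lowest KO array fell just under the highest WT array, so that the groups overlapped. The difference was 0.84 ± 0.22 (SE; adjusted p = 0.0308), or 1.79-fold. At E16.5 Ccl6 gave 8.86, 9.03, 8.86 and 8.90 on the KO arrays, against 7.60, 6.91, 6.96 and 6.64 on the WT arrays. The KO arrays of E16.5 lay close together and far above every WT array. The difference was 1.89 ± 0.22 (SE; adjusted p = 2.73e-05). By group mean the order was KO E16.5, KO E15.5, WT E16.5, WT E15.5, with 8.91 ± 0.08, 7.48 ± 0.48, 7.03 ± 0.41 and 6.64 ± 0.23 (SD, n = 4 each), where KO E15.5 overlapped WT E16.5 and WT E16.5 overlapped WT E15.5. A second, dimmer Ccl6 probe set, 1420249_s_at, whose suffix marks probes that match more than 1 transcript, differed by 0.39 at E15.5 (adjusted p = 0.327, over all probe sets tested) and by 1.50 at E16.5 (adjusted p = 0.000150).

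Ccl9 at E15.5 gave 7.21, 7.50, 7.90 and 8.11 on the KO arrays, against 6.88, 6.83, 6.87 and 6.96 on the WT arrays. Every KO array was above every WT array, and the KO arrays spread more widely. The difference was 0.79 ± 0.20 (SE; adjusted p = 0.0243), or 1.73-fold. At E16.5 Ccl9 gave 8.53, 8.44, 8.84 and 8.73 on the KO arrays, against 7.76, 6.91, 7.27 and 6.87 on the WT arrays. The groups again did not overlap, and WT replicate 1 was the highest of the WT arrays for Ccl9 as it was for Ccl6. The difference was 1.43 ± 0.20 (SE; adjusted p = 0.000159), or 2.70-fold. The order of the group means was that of Ccl6, with 8.64 ± 0.18 in KO E16.5, 7.68 ± 0.40 in KO E15.5, 7.20 ± 0.41 in WT E16.5 and 6.89 ± 0.06 in WT E15.5. The other Ccl9 probe set, 1448898_at, had the same sign, 0.90 and 1.37, but a spread that kept it from passing at E16.5 (adjusted p = 0.147) as at E15.5 (adjusted p = 0.442). On it WT E16.5 replicate 2, which stood apart in RNA quality, gave 3.48, and the other WT arrays of that stage 5.26 to 6.80. That low value widened both the spread and the difference at E16.5.

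Ccl3 (chr11:83647843-83649378) was dim throughout. At E15.5 it gave 4.40, 4.25, 4.61 and 4.80 on the KO arrays, against 3.44, 3.62, 3.38 and 3.68 on the WT arrays. At E16.5 it gave 5.36, 5.72, 5.08 and 5.09 on the KO arrays, against 4.42, 3.77, 3.73 and 3.57 on the WT arrays. The groups did not overlap at either stage, and only 2 arrays, both KO E16.5, were above the filter. In the fit of all measured genes Ccl3 was higher in KO by 0.99 ± 0.18 at E15.5 (SE; adjusted p = 0.00253) and by 1.44 ± 0.18 at E16.5 (SE; adjusted p = 6.54e-05). The annotated record of Ccl4 (chr11:83648624-83664683) overlaps that of Ccl3.

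Ccl4 passed at neither stage. It gave 6.45, 6.07, 6.04 and 6.18 in KO and 6.24, 6.16, 5.87 and 5.92 in WT at E15.5. It gave 6.47, 6.21, 6.49 and 6.26 in KO and 6.30, 6.38, 6.21 and 5.78 in WT at E16.5. The groups overlapped at both stages. The differences were 0.13 at E15.5 (adjusted p = 0.685, 95% interval -0.16 to 0.43) and 0.19 at E16.5 (adjusted p = 0.448, 95% interval -0.10 to 0.49). The difference between Ccl3 and Ccl4 itself was not tested.

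Ccl2 (chr11:82035577-82037452), the ligand of Ccr2, gave 5.06, 5.14, 5.27 and 5.21 on the KO arrays at E15.5, against 4.54, 4.55, 4.68 and 4.59 on the WT arrays. These 2 groups were tight and did not overlap. The difference was 0.58 ± 0.15 (SE; adjusted p = 0.0314), or 1.50-fold. At E16.5 Ccl2 gave 5.23, 5.82, 5.12 and 5.15 on the KO arrays, against 5.12, 4.55, 4.57 and 4.56 on the WT arrays. KO replicate 2 stood above the other KO arrays, and WT replicate 1 stood among the KO arrays and above the other WT arrays. The difference was 0.63 ± 0.15 (SE; adjusted p = 0.0142), or 1.54-fold. Ccl2 signals lay at the level of the filter, where array summaries compress differences.

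Ccr2 (chr9:124101918-124109140) is the receptor through which monocytes follow Ccl2. Its RefSeq promoter entry (GRCm38.p6) is set on a transcript start inside that gene record, so that the 250 bases before this start, chr9:124101933-124102182, lie within the record, and they are shown for comparison with the 2 chemokine promoters. Neither motif was found in them, so that there are no capitals.
Ccr2 promoter: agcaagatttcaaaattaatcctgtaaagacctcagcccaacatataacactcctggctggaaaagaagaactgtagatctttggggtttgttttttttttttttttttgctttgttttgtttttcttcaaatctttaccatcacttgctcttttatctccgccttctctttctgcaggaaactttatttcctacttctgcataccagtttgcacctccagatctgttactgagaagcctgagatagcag
The longest run shared with the Ccl6 promoter was 9 bases and with the Ccl9 promoter 8 bases.

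Ccr2 gave 6.08, 5.88, 6.04 and 5.90 on the KO arrays at E15.5, against 5.74, 5.56, 5.57 and 5.51 on the WT arrays. Every KO array was above every WT array, by a small margin. The difference of 0.38 ± 0.11 (SE) missed the threshold (adjusted p = 0.0528). At E16.5 Ccr2 gave 6.21, 6.25, 5.95 and 5.92 on the KO arrays, against 5.75, 5.63, 5.50 and 5.33 on the WT arrays. Again the groups did not overlap, and the difference was 0.53 ± 0.11 (SE; adjusted p = 0.00540), or 1.44-fold. A second Ccr2 probe set of similar signal, 1421186_at, was higher in KO at both stages, by 0.79 (adjusted p = 0.0185) and 0.71 (adjusted p = 0.0253). Of 2 further Ccr2 probe sets, both below the filter on all 16 arrays, 1421187_at averaged 3.75 in KO and 3.34 in WT at E15.5, whereas 1421188_at ran the other way, 4.33 in KO and 4.56 in WT. At E16.5 1421187_at averaged 3.75 in KO and 3.37 in WT, and 1421188_at again ran the other way, 4.47 in KO and 4.84 in WT. For neither of these probe sets did the KO and WT arrays of E16.5 overlap.

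Rgs1 (chr1:144244669-144249104) gave 4.91, 5.08, 4.77 and 5.56 on the KO arrays at E15.5, against 4.33, 4.17, 4.26 and 4.45 on the WT arrays. All 4 KO arrays were above all 4 WT arrays. The difference was 0.77 ± 0.16 (SE; adjusted p = 0.00725), or 1.71-fold. At E16.5 Rgs1 gave 5.97, 6.14, 6.53 and 6.12 on the KO arrays, against 4.39, 4.31, 4.50 and 4.05 on the WT arrays. The gap between the groups was wider than the spread within either. The difference was 1.88 ± 0.16 (SE; adjusted p = 1.44e-06). In WT the signal stayed at about the same level, 4.31 ± 0.19 at E16.5 and 4.30 ± 0.12 at E15.5 (SD, n = 4 each), below the filter on all 8 arrays. Rgs1 thus entered the test through KO arrays alone. With every measured gene in the fit its adjusted p was 0.00554 at E15.5 and 1.42e-06 at E16.5.

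Csf1 (chr3:107741048-107760469), the growth factor, was bright on all 16 arrays. It gave 7.70, 7.93, 8.02 and 7.89 in KO and 7.60, 7.72, 8.10 and 8.04 in WT at E15.5, with a difference of 0.02 (adjusted p = 0.957, 95% interval -0.21 to 0.26) whose sign turned under 3 other scalings of the arrays. At E16.5 it gave 8.28, 8.15, 8.26 and 8.21 in KO and 7.89, 8.01, 7.94 and 7.84 in WT. At E15.5 the groups overlapped, and at E16.5 they did not. The E16.5 difference was 0.30 ± 0.11 (SE) and did not pass (adjusted p = 0.0966, 95% interval 0.07 to 0.54). The other Csf1 probe sets above the filter had the opposite sign at E16.5, with -0.20 for 1425154_a_at and -0.07 for 1448914_a_at, and did not pass. For 1425154_a_at WT E16.5 replicate 2, which stood apart in RNA quality, gave 7.13. The other WT arrays of that stage gave 6.25 to 6.56 and the KO arrays 6.23 to 6.58. At E15.5 1425154_a_at differed by 0.01 (adjusted p = 0.983) and 1448914_a_at by -0.41 (adjusted p = 0.195, over all probe sets tested).

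Cxcl12 (chr6:117168535-117181368), the stromal chemokine, gave 10.19, 9.82, 10.18 and 10.01 in KO and 9.74, 9.74, 9.83 and 10.36 in WT at E15.5. At E16.5 it gave 9.55, 10.26, 10.14 and 10.07 in KO and 9.75, 9.08, 9.41 and 9.94 in WT. The groups overlapped at both stages, with WT replicate 4 the highest array at E15.5 and KO replicate 1 the lowest KO array at E16.5. The differences were 0.13 at E15.5 (adjusted p = 0.799, 95% interval -0.28 to 0.55) and 0.46 at E16.5 (adjusted p = 0.159, 95% interval 0.04 to 0.87). A second Cxcl12 probe set, 1417574_at, differed by 0.06 at E15.5 and passed at E16.5 with 0.48 (adjusted p = 0.0331). Its mean was 9.14 ± 0.15 in KO and 8.66 ± 0.26 in WT at E16.5 (SD, n = 4 each), against 9.25 ± 0.09 in KO and 9.19 ± 0.19 in WT at E15.5.

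**Figure D2:**
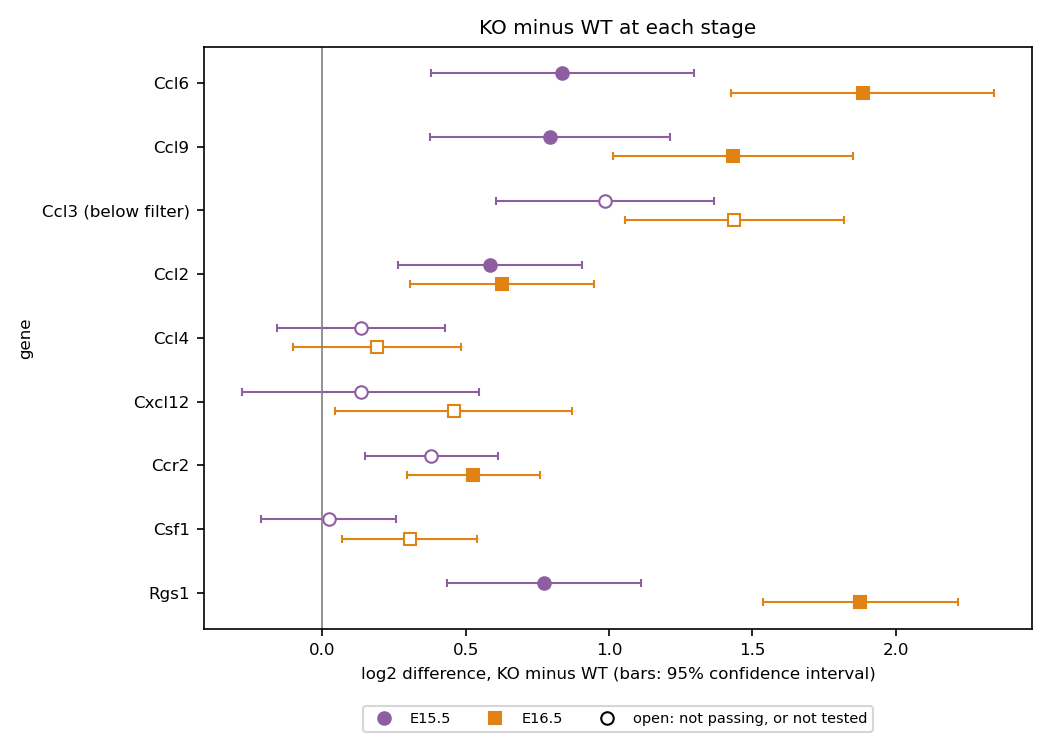
KO minus WT difference on the log2 scale (x axis) for each of the 9 genes at E15.5 (circles) and E16.5 (squares), with 95% confidence intervals from the fit (for Ccl3, the fit of all measured genes). Filled symbols passed the test; Ccl6 and Rgs1 reach 1.89 and 1.88 at E16.5, and the intervals of Ccl4 include 0 at both stages.

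The groups of KO and WT arrays did not overlap for 4 of the 8 tested genes at E15.5, where 9.8% of all tested genes were higher without overlap, and for 5 of 8 at E16.5, where 10.4% were. Since Ccl2 and Rgs1 entered the test through 5 arrays each, those of Rgs1 all KO, these counts too are a description. The calls at E16.5 held for Ccl2, Ccl6, Ccl9, Ccr2 and Rgs1 when each of the 16 arrays was left out in turn. At E15.5 Rgs1 kept its call in all 16 such fits, but the others did not. Ccl2 lost its call in 7 fits (adjusted p = 0.0536 to 0.0821), those without KO E15.5 replicates 2, 3 or 4 or any WT E15.5 replicate. Ccl6 lost it in 6 (adjusted p = 0.0567 to 0.0973), without KO E15.5 replicates 2, 3 or 4 or WT E15.5 replicates 1, 2 or 4. Ccl9 lost it in 5 (adjusted p = 0.0587 to 0.0880), without KO E15.5 replicates 3 or 4 or WT E15.5 replicates 1, 2 or 3. Ccr2 passed in 3, without WT E16.5 replicates 1, 2 or 4, with adjusted p from 0.0362 to 0.0456. When arrays were centred on the dimmest 20% of probe sets, whose median was 3.51 to 3.58 in KO and 3.41 to 3.56 in WT, Ccl2, Ccl6 and Ccl9 missed the threshold at E15.5 (adjusted p = 0.0690, 0.0561 and 0.0515). Centred on the 75th percentile of each array, Ccl2 missed it at E15.5 (adjusted p = 0.0763).

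Over the day from E15.5 to E16.5 Ccl6, Rgs1 and Ccl9 rose in KO adrenals, and none of the 8 tested genes passed in WT adrenals. In KO Ccl6 was higher at E16.5 by 1.44 ± 0.22 (SE; adjusted p = 0.00308), or 2.71-fold. Rgs1 was higher by 1.11 ± 0.16 (SE; adjusted p = 0.00225), or 2.16-fold, with an adjusted p of 0.00235 when every measured gene was in the fit. Ccl9 was higher by 0.96 ± 0.20 (SE; adjusted p = 0.0270), or 1.94-fold. For each of these 3, as for Csf1, every KO E16.5 array was above every KO E15.5 array, which held for 5.53% of all tested genes. Since Rgs1 entered the test through few arrays, all of them KO, this is a description. The 3 were 3 of 8 tested genes, where 0.872% of all tested genes rose in KO, and 3 of 9 with every gene in the fit, where 0.665% rose. Ccl9 lost this call in 4 fits, without KO E15.5 replicates 1 or 2 or KO E16.5 replicates 3 or 4 (adjusted p = 0.0832 to 0.117).

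The remaining day changes in KO were smaller. Ccl3 differed by 0.80 ± 0.18 (SE) in the fit of all measured genes and missed the threshold (adjusted p = 0.0566), with no overlap between the days. Csf1 differed by 0.34 ± 0.11 (SE; adjusted p = 0.244), also with no overlap. Ccl4, Ccl2, Ccr2 and Cxcl12 differed by 0.18, 0.16, 0.11 and -0.04, with overlap in each.

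In WT the day change was 0.39 for Ccl6 (adjusted p = 0.730), 0.32 for Ccl9 (adjusted p = 0.774), 0.01 for Rgs1 (adjusted p = 0.996) and -0.37 for Cxcl12 (adjusted p = 0.699). With limma 0 of the 8 tested genes passed and 0 had an unadjusted p under 0.05, and 0.0953% of all tested genes passed in either direction. The second Cxcl12 probe set had a day change of -0.53 in WT, with no overlap between the days, and did not pass over all probe sets (adjusted p = 0.249). WT replicate 1 of E16.5 was the highest WT array of that stage for Ccl2, Ccl3, Ccl6, Ccl9 and Ccr2. It was also the highest of these WT arrays in mean signal of erythroid markers, 8.36 against 6.50 to 6.93. The mean of macrophage markers was 8.02 on it, against 7.46 to 7.68 on the others. What set this array apart was not tested.

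**Figure D3:**
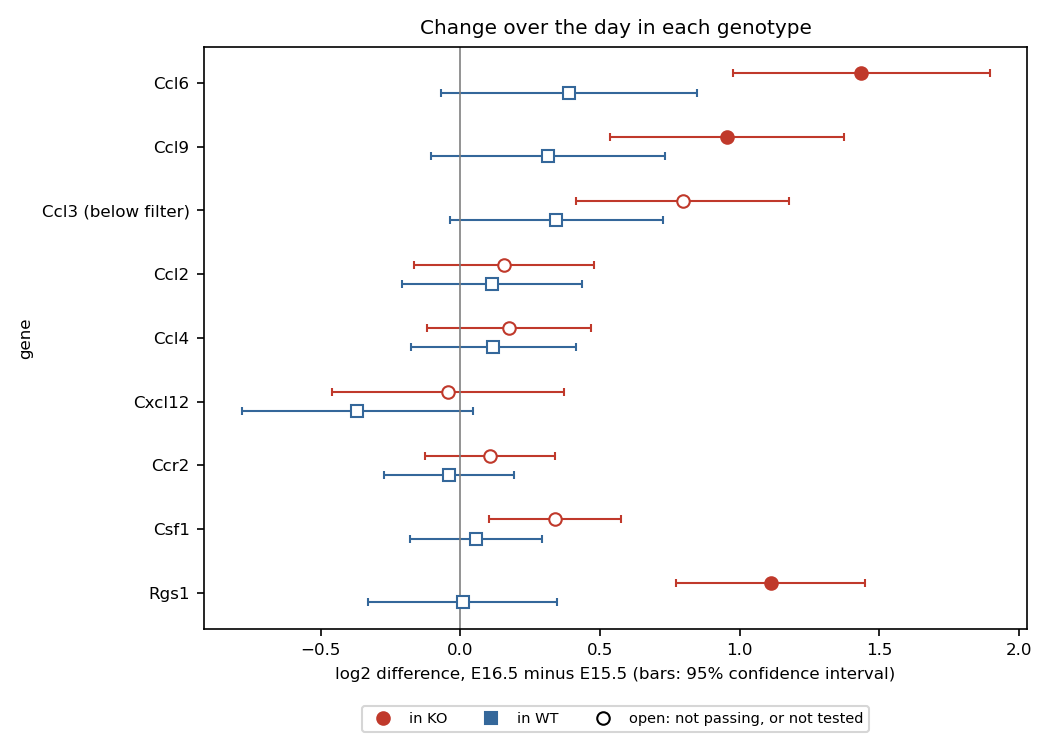
E16.5 minus E15.5 difference on the log2 scale (x axis) for each of the 9 genes in KO (circles) and in WT (squares), with 95% confidence intervals from the fit (for Ccl3, the fit of all measured genes). Filled symbols passed the test; these are Ccl6, Ccl9 and Rgs1 in KO, at 1.44, 0.96 and 1.11.

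Whether the KO effect itself differed between the days was tested as the E16.5 effect minus the E15.5 effect. No gene passed over all 13644 genes, with limma, and 258 had an unadjusted p under 0.05, so that 0% were called. The unadjusted p was under 0.05 for Rgs1 (1.10 ± 0.23 SE, unadjusted p = 0.000169), Ccl6 (1.05 ± 0.31 SE, unadjusted p = 0.00355) and Ccl9 (0.64 ± 0.28 SE, unadjusted p = 0.0360). A larger effect at E16.5 than at E15.5 is thus not shown for any of them after adjustment. The estimate was 0.04 for Ccl2 (95% interval -0.41 to 0.50) and 0.15 for Ccr2 (95% interval -0.18 to 0.48).

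Many macrophage markers were higher in KO, as were some but not all of the 9 genes. Of 22 macrophage markers measured, 13 were higher in KO at E15.5 and 18 at E16.5 with every gene in the fit, against 6.19% and 8.62% of all measured genes, and none passed as lower. Their mean signal over the 20 markers above the filter was 7.65 to 8.20 in KO and 7.25 to 7.40 in WT at E15.5, and 8.60 to 8.95 in KO and 7.46 to 8.02 in WT at E16.5. The 2 markers under the filter were Itgam and Timd4. The complement gene C1qb and the Fc receptor Fcgr1 were higher in KO by 0.74 (adjusted p = 0.0345) and 1.08 (adjusted p = 0.0323) at E15.5 and by 1.41 (adjusted p = 0.000161) and 1.75 (adjusted p = 0.000701) at E16.5, and their E15.5 calls were lost in 7 and 6 of 16 fits with an array left out. Other markers had a negative difference at E15.5 and did not pass. The scavenger receptor Cd163 differed by -0.53 (adjusted p = 0.164), with every KO array below every WT array, Cd14 by -0.16 (adjusted p = 0.670) and Trem2 by -0.01 (adjusted p = 0.982). At E16.5 Cd163, Cd14 and Trem2 differed by 0.26, -0.14 and 0.31, and none of these passed. In KO 9 of the 20 rose over the day, against 0.872% of all tested genes, and in WT none passed. With 1 array left out, 7 to 15 of the 20 passed at E15.5 and 16 or 17 at E16.5. The number was lowest at E15.5 without KO replicates 3 or 4 or WT replicates 2, 3 or 4 of that stage, and highest without WT E16.5 replicate 2. How far the chemokine differences follow from these markers was not tested.

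Within groups, arrays with more macrophage signal had more Ccl6 and Ccl9. Each array's deviation from its group mean was set against the same deviation of the mean of the 20 markers, over 16 arrays that share their processing, as a description. Pearson's r was 0.84 for Ccl6 (Spearman's rho 0.74), 0.78 for Ccl9 (rho 0.66), 0.70 for Ccl2 (rho 0.64) and 0.56 for Rgs1 (rho 0.52). It was 0.35 for Cxcl12, 0.20 for Csf1, 0.12 for Ccr2 and -0.20 for Ccl4. Without the 2 arrays farthest from the median in macrophage signal, KO E15.5 replicate 4 and WT E16.5 replicate 1, r was 0.68 for Ccl6, 0.57 for Ccl9, 0.62 for Ccl2 and 0.40 for Rgs1. Without WT E16.5 replicate 2, the array that stood apart in RNA quality, r was 0.87 for Ccl6, 0.75 for Ccl9, 0.68 for Ccl2 and 0.60 for Rgs1.

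**Figure D4:**
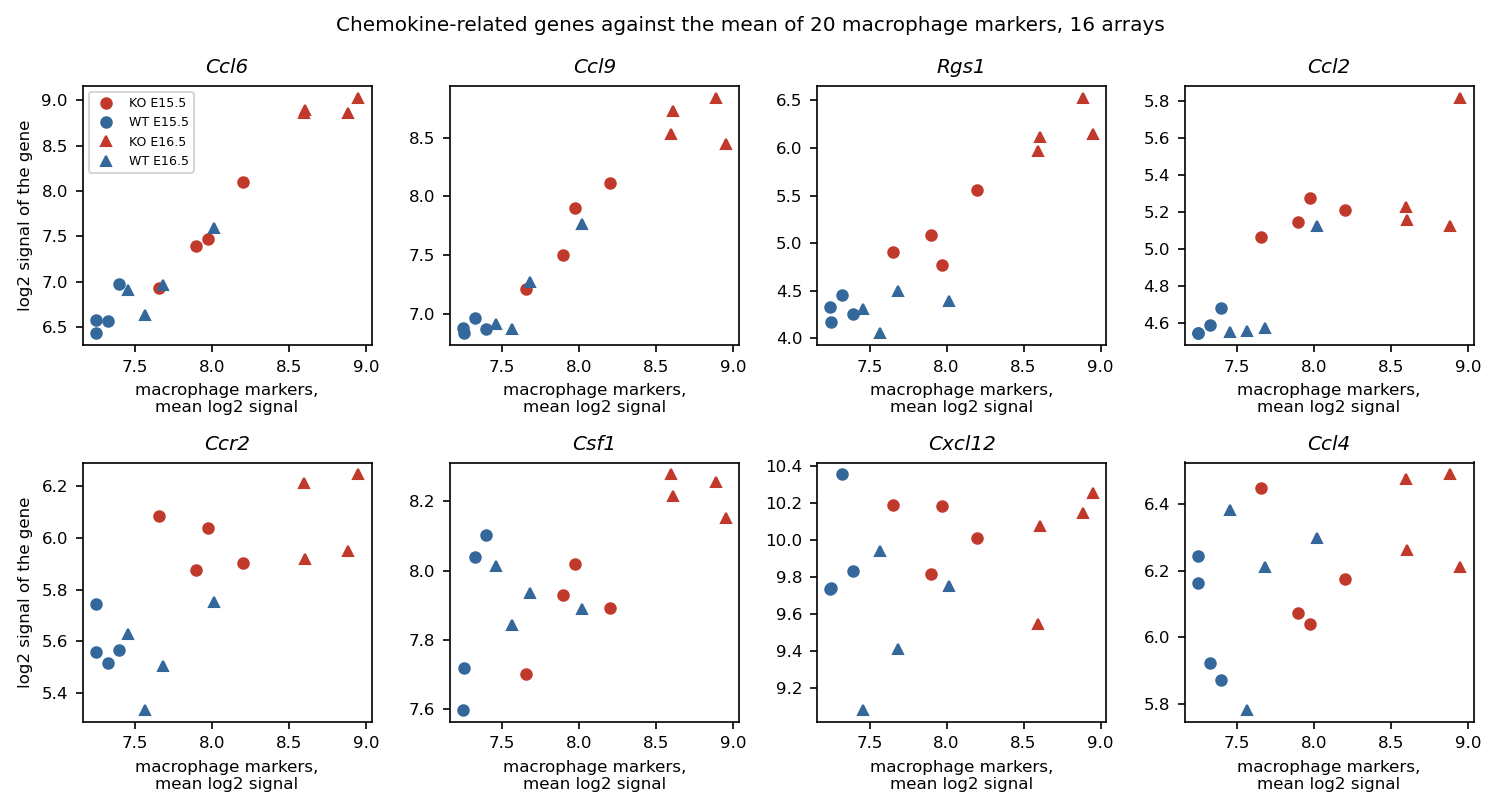
Log2 signal of each of the 8 tested genes (y axis) against the mean log2 signal of 20 macrophage markers (x axis) on the 16 arrays, circles for E15.5 and triangles for E16.5, KO in red and WT in blue. The group means of Ccl6 (8.91 in KO E16.5 against 6.64 in WT E15.5) and Ccl9 (8.64 against 6.89) climb with the marker mean over a wider range than those of Ccl4 (6.36 against 6.05).

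Among 13636 other tested genes, those whose deviations over the 16 arrays were most like Ccl6 were Srgn (r = 0.90), Mgp (r = 0.90) and Sugt1 (r = 0.86). For Ccl9 they were Chmp6 (r = 0.91), Atpaf2 (r = 0.90) and Pycrl (r = 0.90), for Rgs1 Clec7a (r = 0.83), Tmem140 (r = 0.77) and Lpin1 (r = 0.77), and for Ccr2 Sox21 (r = 0.96), Lcat (r = 0.92) and Cideb (r = 0.91). For Ccl2 they were Atcay (r = 0.92), Mcts1 (r = 0.90) and Cox19 (r = 0.89), and without the 2 arrays on which Ccl2 deviated most r was 0.73, 0.74 and 0.76. For Clec7a, Tmem140 and Lpin1, r without the 2 arrays on which Rgs1 deviated most was 0.69, 0.69 and 0.61. For the genes most like Ccl6, Ccl9 and Ccr2 it was 0.80 to 0.95, likewise without 2 arrays. Each r was picked as among the highest of many, so that these values are a description. None of these 15 genes is a chemokine.

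The other CC chemokine ligands divided into genes higher in KO and genes with little difference. Of 13 measured, 6 were higher in KO at E15.5 and 7 at E16.5 with every gene in the fit, against 6.19% and 8.62% of all measured genes, and none was lower. The 9 above the filter held 4 that were higher at E15.5, against 3.69% of all tested genes, and 5 at E16.5, against 6.99%. Some of these reached the filter through the KO arrays, since WT means were below it at both stages for Ccl11, Ccl12 (4.31 at E15.5 and 4.55 at E16.5) and Ccl17 (4.40 and 4.50), so that these counts are a description. Ccl11, the eosinophil attractant eotaxin, averaged 6.37 ± 0.08 in KO and 4.93 ± 0.22 in WT at E15.5, a difference of 1.43 (adjusted p = 0.00108), and 6.08 ± 0.61 in KO and 4.86 ± 0.31 in WT at E16.5, a difference of 1.22 (adjusted p = 0.00264; SD, n = 4 each). The Ccl11 difference at E15.5 was larger than that of any of the 8 tested genes at that stage. Ccl12, a mouse ligand of Ccr2, differed by 0.56 at E15.5 (adjusted p = 0.176) and by 1.16 at E16.5 (adjusted p = 0.00337). Ccl17, which attracts T cells through Ccr4, was higher by 0.76 at E15.5 (adjusted p = 0.00327) and by 0.77 at E16.5 (adjusted p = 0.00202). The epithelial chemokine Ccl28 was higher by 0.59 (adjusted p = 0.0126) and 0.53 (adjusted p = 0.0160), and the T cell and monocyte attractant Ccl5 by 0.54 (adjusted p = 0.0324) and 0.47 (adjusted p = 0.0448). Of 4 measured under the filter, Ccl7, another ligand of Ccr2, lay between 3.56 and 4.60 on the arrays, and Ccl1 between 4.03 and 5.12. Both were higher in KO at both stages with every gene in the fit.

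Among the other CXC, CX3C and XC ligands, 9 of 16 were above the filter. None of these passed at E15.5, with limma, and at E16.5 2 were higher and 1 lower in KO, where 6.99% of all tested genes were higher. With every gene in the fit 1 of the 16 was higher and 1 lower at E15.5, and 4 were higher and 1 lower at E16.5. Over all measured genes 6.19% and 8.62% were higher, and 3.08% and 4.33% lower. At E16.5 Pf4, a platelet chemokine that macrophages of the embryo also carry, was higher in KO by 0.92 (adjusted p = 0.0164), with 10.77 ± 0.43 in KO and 9.85 ± 0.45 in WT. Cxcl14 was higher by 0.81 (adjusted p = 0.0232), and Xcl1, a chemokine of natural killer and T cells, was lower in KO, with a difference of -0.33 (adjusted p = 0.0229). The largest difference in the list was that of Cxcl13, the B cell attractant, 1.65 at E16.5, but its arrays spread so far (SD 1.26 in KO and 1.20 in WT) that it did not pass (adjusted p = 0.102). Ppbp, the other platelet chemokine of the list, differed by 0.80 (adjusted p = 0.134).

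A few of the other chemokine receptors passed, in both directions. With every gene in the fit 3 of 20 measured were higher in KO and 1 lower at E15.5, against 6.19% and 3.08% of all measured genes. At E16.5 4 were higher and 2 lower, against 8.62% and 4.33%. Above the filter were 10 receptors, of which 1 was higher and 1 lower at E15.5, and 2 higher and 1 lower at E16.5. Over all tested genes 3.69% and 6.99% were higher. Cx3cr1, the fractalkine receptor of monocytes and macrophages, was higher in KO by 0.55 at E15.5 (adjusted p = 0.0173) and by 0.73 at E16.5 (adjusted p = 0.00169), with 8.11 ± 0.06 in KO and 7.38 ± 0.05 in WT at E16.5 (SD, n = 4 each). Ackr3, an atypical receptor that takes up Cxcl12, was lower in KO, with a difference of -0.62 at both stages (adjusted p = 0.00568 at E15.5 and 0.00431 at E16.5), with 10.88 ± 0.23 in KO and 11.51 ± 0.09 in WT at E15.5. Ccr6 was higher at E16.5 by 0.45 (adjusted p = 0.0450). Cxcr4, the signalling receptor of Cxcl12, differed by 0.43 and 0.40, and Ccr1, a receptor of several CC ligands, by 0.43 (adjusted p = 0.0553) and 0.37 (adjusted p = 0.0736), and neither passed among the genes above the filter. Ccr1 was among the receptors that passed at E15.5 with every gene in the fit.

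The receptor of Csf1 differed where its ligand did not pass. Csf1r averaged 11.78 ± 0.11 in KO and 10.67 ± 0.34 in WT at E15.5, a difference of 1.10 (adjusted p = 0.000459), and 11.99 ± 0.12 in KO and 10.87 ± 0.30 in WT at E16.5, a difference of 1.12 (adjusted p = 0.000239; SD, n = 4 each). The r of its deviations within groups with those of the macrophage markers was -0.41 over 16 arrays and -0.25 without WT E16.5 replicate 2, a description as above. Csf3, the granulocyte growth factor, was higher in KO by 0.42 (adjusted p = 0.0125) and 0.52 (adjusted p = 0.00166), and was near the filter. Csf2ra, Csf2rb and Csf3r did not pass, and Il34, the second ligand of Csf1r, lay below the filter, between 3.88 and 4.70. Of 6 other regulators of G-protein signalling above the filter, Rgs10 was higher in KO by 0.77 (adjusted p = 0.0343) and 0.96 (adjusted p = 0.00585) and Rgs14 by 0.45 (adjusted p = 0.00961) and 0.33 (adjusted p = 0.0396). Rgs2, Rgs3, Rgs16 and Rgs19 passed at neither stage. At each stage 2 of these 6 were thus higher, as were 2 of 5 colony-stimulating factor genes above the filter. Over all tested genes 3.69% were higher at E15.5 and 6.99% at E16.5.

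**Figure D5:**
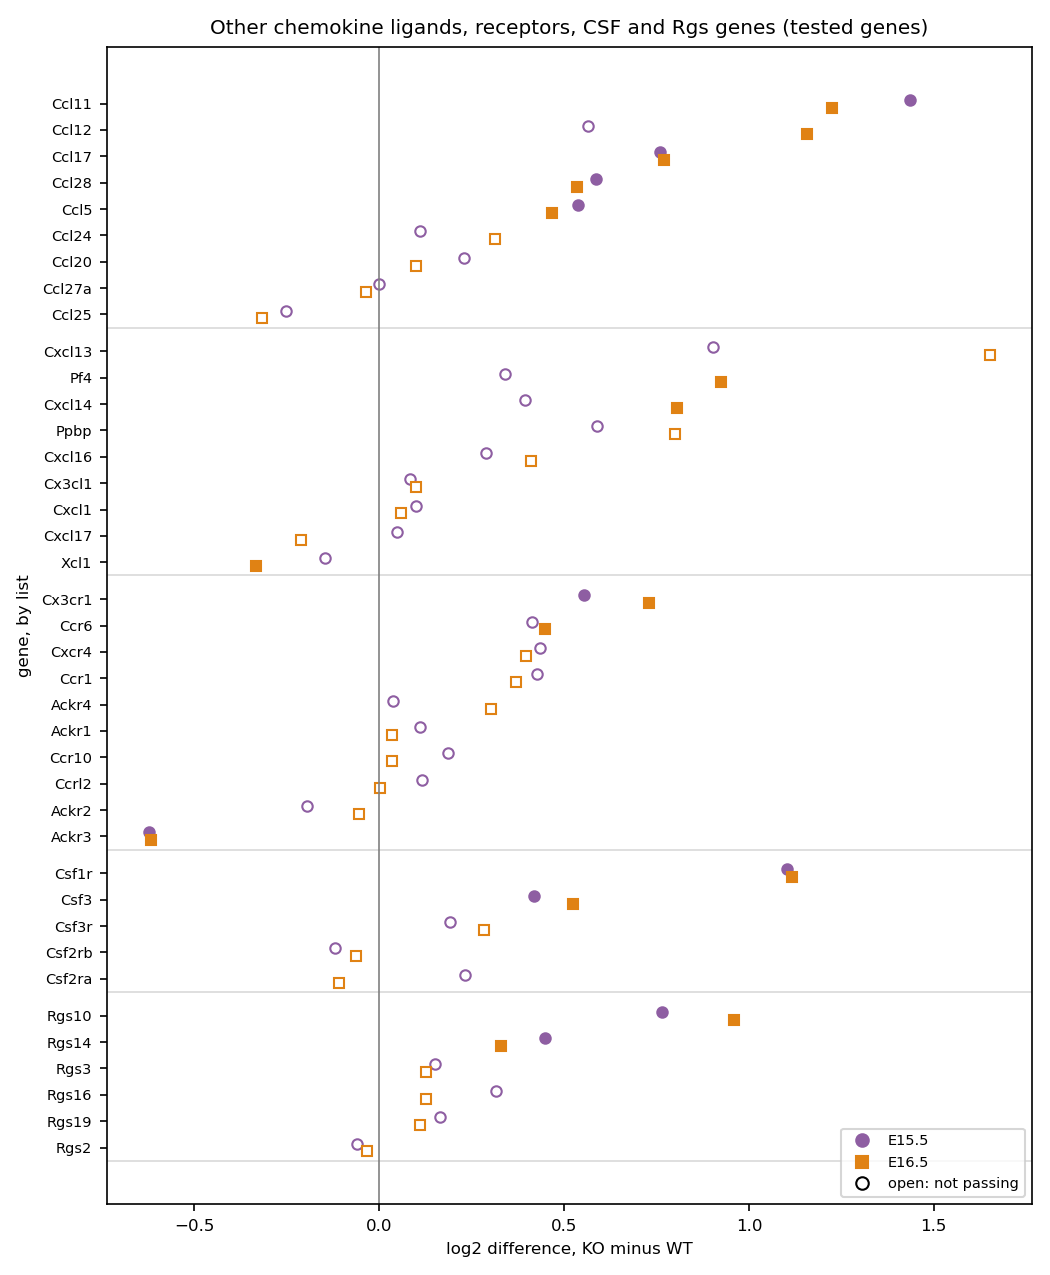
KO minus WT difference on the log2 scale (x axis) of the tested genes of 5 lists, from top to bottom the other CC ligands, the other CXC, CX3C and XC ligands, the other receptors, colony-stimulating factor signalling and other Rgs genes, at E15.5 (circles) and E16.5 (squares). Filled symbols passed the test; Ccl11 and Csf1r lie to the right at both stages and Ackr3 to the left.

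When each array was left out in turn, Ccl11, Ccl17, Csf1r and Ackr3 kept their calls at both stages in all 16 fits, as did Ccl12, Cx3cr1 and Rgs10 at E16.5. At E15.5 Ccl28 and Csf3 lost theirs without WT E15.5 replicate 3 (adjusted p = 0.0501 and 0.0507). Cx3cr1 lost its E15.5 call without KO E15.5 replicates 2, 3 or 4 or WT E15.5 replicates 1 or 2 (adjusted p up to 0.0672). Rgs10 lost its E15.5 call without KO E15.5 replicates 2, 3 or 4 or WT E15.5 replicates 1, 2 or 4 (adjusted p up to 0.109). Pf4 lost its E16.5 call without KO E16.5 replicates 1 or 2 or WT E16.5 replicates 3 or 4 (adjusted p up to 0.0546), and Xcl1 without KO E16.5 replicates 2 or 4 or WT E16.5 replicates 1 or 3 (adjusted p up to 0.0765). Cxcl14 lost it without KO E16.5 replicates 2 or 3 or WT E16.5 replicates 1, 3 or 4 (adjusted p up to 0.0699). The weakest calls were those of Ccl5, lost in 5 fits at E15.5 and 10 at E16.5, Ccr6, lost in 11 at E16.5, and Rgs14, lost in 9 at E16.5. Cxcl13 passed in 2 fits, without KO E16.5 replicate 1 or WT E16.5 replicate 1 (adjusted p = 0.0216 to 0.0256).

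Markers of further cell types were set beside these genes. The monocyte marker Plac8 was higher in KO by 0.62 at E15.5 (adjusted p = 0.0351) and by 0.91 at E16.5 (adjusted p = 0.00178), while F13a1 passed at neither stage, and Chil3 was below the filter. Of the neutrophil markers 0 of 6 passed, of the mast cell markers 0 of 3, of the endothelial markers 0 of 8 and of the capsule and mesenchyme markers 0 of 8, between KO and WT at either stage with limma. In either direction 800 of all 13644 tested genes passed at E15.5 and 1439 at E16.5, so that 0 in lists this short says little about these cell types. At E16.5 the megakaryocyte marker Gp9 (0.72, adjusted p = 0.0459), the B cell marker Cd79b (0.49, adjusted p = 0.0410) and the chromaffin markers Chga (0.69, adjusted p = 0.00849) and Dbh (0.36, adjusted p = 0.0453) were higher in KO. They were 1 of 3 megakaryocyte, 1 of 3 lymphocyte and 2 of 4 chromaffin markers tested, against 6.99% of all tested genes. With 1 array left out, Gp9 lost its call in 10 of 16 fits, Cd79b in 9, Dbh in 11 and Plac8, at E15.5, in 6, and each of these calls was also lost under the 3 other scalings of the arrays. Of 7 cortex markers 2 were lower in KO at E15.5 and 3 at E16.5 with every gene in the fit, against 3.08% and 4.33% of all measured genes. Above the filter Hsd3b1 passed at both stages with -0.32 at E15.5 (adjusted p = 0.0214) and -0.40 at E16.5 (adjusted p = 0.00292). Mc2r passed at E16.5 (-0.77, adjusted p = 0.00403) and not at E15.5 (-0.48, adjusted p = 0.0788), and likewise Cyp21a1 (-1.09, adjusted p = 0.00765, and -0.82, adjusted p = 0.0539). Leaving out 1 array ended the E15.5 call of Hsd3b1 in 5 of 16 fits. The part of each of these cell types in the chemokine differences was not tested.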

How the data were processed

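Affymetrix Mouse430_2 arrays measured total RNA of pooled fetal adrenals on 16 arrays, 4 per genotype and stage. The authors deposited a table of normalized log2 signals for 45101 probe sets, taken here as it stood. RMA and limma are named in the submitters' processing notes, with versions not given in the sources used here. RMA compresses dim signals, which understates their differences. Precision is set by 4 arrays a group, and the median standard error of a KO minus WT difference was 0.139.

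Gene names came from the platform annotation, with 34945 probe sets of 1 symbol, 932 of several and 9160 of none, and symbols updated by gene identifier for 34741. The probe set with the highest mean stood for a gene. Of 18193 genes, 13644 were tested and 4549 lay below the filter (4 or more arrays above their 40th percentile). limma 3.58.1 in R 4.3.3 fitted a mean for each of the 4 groups on all 16 arrays, without a block, with eBayes, two-sided tests and Benjamini-Hochberg adjustment over all genes tested. The fit was tested on simulated data. Alternatives were no filter, a stricter filter (60th percentile), quantile normalization, centring on the 75th percentile or on the dimmest 20% of probe sets, every probe set as a feature, only the 2 groups compared, a replicate block and each array left out.

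The 9 genes and the gene lists were chosen with earlier results of these data known. Named from the lists were every chemokine, receptor, colony-stimulating factor or Rgs gene that passed and up to 4 genes with the largest difference, and for each passing member the 3 genes with the most similar deviations. Cxcr4, Ccr1 and the members of lists that did not pass were named for their roles, after their values were seen. The lists also held 14 genes that are not analysed here. In the lists of lymphocyte and erythroid markers 3 and 5 genes were tested, and no erythroid marker passed between KO and WT, which says little for a list this short. Groups came from the sample titles, each pool counting as 1 replicate. No scan date, slide or other batch was given in the sources used here.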

Additional observations from a re-analysis of the deposited data

Results flagged for a closer look

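In 3 of 36 sets of 4 arrays (9 genes in 4 groups) a single array lay far from the other 3, judged by its gap to the nearest array over the whole range of the group against Dixon's 95% critical value of 0.829. Chance gives about 1 in 20 such sets. Ccl2 in KO E16.5 had a ratio of 0.847, with replicate 2 at 5.82 and the others at 5.12 to 5.23. Ccl2 in WT E16.5 had a ratio of 0.965, with replicate 1 at 5.12 and the others at 4.55 to 4.57. Cxcl12 in WT E15.5 had a ratio of 0.849, with replicate 4 at 10.36 and the others at 9.74 to 9.83. The KO minus WT difference of Ccl2 at E16.5 ranged between 0.47 and 0.77 over the 16 fits that left out 1 array and passed in each.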

How the results depend on the processing

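Ccl6, Ccl9, Rgs1 and Ccr2 kept their direction and passed at E16.5 under every alternative in which they were tested, as Ccl6 and Rgs1 did for the rise over the day in KO. The stricter filter tested 4 of the 9 genes and left 2 passing at E15.5 and 2 at E16.5, since Ccl2, Ccr2 and Rgs1 were no longer tested. Centring on the dimmest 20% left 1 gene passing at E15.5, Rgs1, with adjusted p of 0.0690 for Ccl2, 0.0561 for Ccl6 and 0.0515 for Ccl9, the cause of which was not tested. Centring on the 75th percentile ended the call of Ccl2 at E15.5 (adjusted p = 0.0763). With only the 2 groups compared Ccl6 missed at E15.5 (adjusted p = 0.0524), Ccl2 at E16.5 (adjusted p = 0.0909) and Ccl9 over the day in KO (adjusted p = 0.0647). All genes passing at E15.5 numbered 800, or 1688 with no filter, 414 with the stricter filter and 1241 with every probe set as a feature. At E16.5 they numbered 1439, or 2355, 899 and, with only the 2 groups compared, 817. Over the day 123 passed in KO, 73 with only the 2 groups, and 13 in WT, 8 with the stricter filter and 0 with only the 2 groups. Scaling moved the split of higher to lower genes, 503 to 297 at E15.5 as deposited, to 373 to 350 with quantile normalization, 276 to 372 centred on the 75th percentile and 314 to 510 centred on the dimmest 20%. At E16.5 the split of 954 to 485 became 606 to 570, 447 to 609 and 601 to 648. The Csf1 difference at E15.5 turned to -0.048 (quantile), -0.055 (75th percentile) and -0.065 (dimmest 20%), and the Rgs1 day change in WT to -0.0061 (quantile) and -0.0066 (dimmest 20%), none of which passed. With the replicate number as a block 4 genes passed at E15.5, 5 at E16.5 and 3 over the day in KO, with Ccl2 losing its call (adjusted p = 0.0627) and Ccr2 gaining it (adjusted p = 0.0302) at E15.5, and 710, 1263 and 110 of all genes passed. The labels do not say that a replicate number marks a litter, so that the numbers were not taken as a pairing. Deviations of same-numbered KO and WT arrays correlated between -0.39 and 0.39 at E15.5 and between -0.20 and 0.45 at E16.5. The correlation was over 0.1 in 2 of 4 pairs at E15.5 and 3 of 4 at E16.5, which cannot decide the pairing. The fit without a block does not take shared litters into account. Among genes of the lists that were named with a call, quantile normalization ended those of C1qb, Plac8, Hsd3b1 and Rgs10 at E15.5 and of Gp9, Cd79b, Dbh and Rgs14 at E16.5. The 75th percentile ended those of Ccl5, Ccl28, Csf3, Rgs10, Rgs14, C1qb and Plac8 at E15.5 and of Ccl5, Ccl28, Cxcl14, Ccr6, Rgs14, Gp9, Cd79b and Dbh at E16.5. The dimmest 20% ended those of Ccl5, Cx3cr1, Rgs10, Fcgr1 and Plac8 at E15.5 and of Ccl5, Ccr6, Rgs14, Gp9, Cd79b and Dbh at E16.5. The replicate block ended those of Csf3, Fcgr1, Plac8 and Hsd3b1 at E15.5 and of Ccl5, Ccr6, Rgs14, Cd79b and Dbh at E16.5, and gave calls to Ccr1 at both stages, Gp9 at E15.5 and Chgb, Tek, Hbb-y and Hbb-bh1 at E16.5. Dicer1 lost its E16.5 call under each of these and with no filter. Leaving out 1 array at a time gave 1 to 5 genes passing at E15.5, 935 to 1705 of all genes at E16.5, 53 to 175 over the day in KO and 0 to 19 in WT. Values that crossed 0 in these fits ranged from -0.067 to 0.10 (Csf1 at E15.5), -0.12 to 0.18 and -0.072 to 0.14 (Ccl2 and Ccl4, difference of the KO effect), -0.0062 to 0.23 and -0.13 to 0.11 (Ccl2 and Cxcl12 over the day in KO) and -0.028 to 0.16, -0.11 to 0.033, -0.033 to 0.13 and -0.054 to 0.095 (Ccl2, Ccr2, Csf1 and Rgs1 over the day in WT).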
